A study of Homo sapiens with 12 samples.

Results

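The genes described here encode the core of Notch signalling: 3 receptors (NOTCH1, NOTCH2, NOTCH3), 3 ligands (JAG1, JAG2, DLL1), the DNA-binding factor RBPJ and 3 target genes (HES1, HEY1, HEYL). They were looked up by symbol in each of the 12 libraries, and 9 of the 10 had a row among the 19907 gene symbols. DLL1 was not analysed here. RNA-seq had been run on MDA-MB-231, an established human line of triple negative breast cancer cells that expresses the glucocorticoid receptor (GR). One line kept wild-type receptor (wt-GR), and in the other, S134A-GR clone #1, genome editing had turned a serine of the receptor that can be phosphorylated into alanine. After 18 h of starvation in medium with 1% charcoal-stripped serum, cells of each line were given vehicle (Veh) or TGFβ1 (10 ng/mL, 6 h), which made 4 groups of 3 replicates. No glucocorticoid was added in any group. S134A-GR is represented by 1 clone, so the amino acid change and other differences between clones cannot be told apart. The labels do not say that replicates came from separate cultures, so p-values measure the spread between these samples only, and fewer cells with a transcript and less transcript per cell cannot be told apart in bulk RNA.

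Notch receptors are single-pass proteins that bind a ligand on a neighbouring cell. Binding exposes the receptor to an ADAM protease and then to γ-secretase, which frees the intracellular domain. That domain enters the nucleus, joins RBPJ and a Mastermind coactivator, and turns RBPJ from a repressor into an activator of HES and HEY genes, whose products are basic helix-loop-helix repressors. In breast cancer the pathway is known for its links to stem-like cells, and JAG1 is a known target of TGFβ signalling in several cell types.

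The values are normalized counts, that is, reads per gene divided by a size factor of the library. Recovered totals, in units of 1e6 reads, were 56.4 to 129.8, and 3 reads, taken as the floor, corresponded to 2.15 to 4.89 normalized counts, counting error only. Whether both reads of a pair were counted is not given in the sources used here, so these totals, the floor and the reads given for NOTCH4 may count a fragment more than once. All 9 genes lay far above the floor. Fold changes are on the log2 scale of the normalized count plus 1, from limma fitted over 18579 genes, and a gene is said to have risen, fallen or differed only at a Benjamini-Hochberg adjusted p under 0.05 over all of them. Known TGFβ1 targets moved as a check of the labels. SMAD7 rose in both lines (log2 fold changes 1.19 in wt-GR and 1.32 in S134A-GR cells), and PMEPA1 rose by 2.90 and 2.18. NR3C1, the gene of GR, was lower in the S134A-GR line (−0.41 under vehicle and −0.31 under TGFβ1), and its total level does not test the amino acid change. The mesenchymal markers VIM, CD44, ZEB1 and AXL were high in every group. FN1, which encodes fibronectin and belongs to the same list, had 57099, 41066 and 29774 normalized counts in vehicle-treated wt-GR cells but 9582 ± 377 (SD, n = 3) in the S134A-GR line (−2.10, adjusted p = 7.88e-08 by limma), and 45971 ± 310 against 9969 ± 1059 with TGFβ1. Of the luminal markers ESR1 and CDH1, the leukocyte marker PTPRC and the fibroblast markers DCN and LUM, none exceeded 12.5 normalized counts in any library. Other markers of these lists were detected. Group means were 339 to 1024 for EPCAM, with the lower values in the S134A-GR line, 712 to 1093 for GATA3, 198 to 289 for FOXA1, 4.62 to 30.4 for CD14 and 5.29 to 26.4 for PDGFRA. The summed markers of all 4 other cell types varied between the groups. The endothelial list (PECAM1, CDH5, VWF) summed to 1885 to 2032 in wt-GR cells under vehicle and 1468 to 1511 under TGFβ1, against 1447 to 1572 and 928 to 1110 in S134A-GR cells, and the luminal list to 2030 to 2109, 1857 to 2009, 1693 to 1862 and 1394 to 1614. The leukocyte list (PTPRC, CD14) summed to 29.6 to 37.5, 11.7 to 23.4, 8.11 to 16.9 and 5.72 to 14.2, and the fibroblast list to 13.0 to 23.2, 19.0 to 35.5, 3.77 to 8.91 and 3.80 to 19.2. Under vehicle the sums of the lines did not overlap in any of these 4 lists. Under TGFβ1 those of the endothelial and luminal lists did not overlap, while those of the leukocyte and fibroblast lists did. The part of these markers in the results was not tested.

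Among the wt-GR libraries under vehicle, replicates 1 and 3 deviated most from their group mean, with a median absolute deviation of 0.0562 and 0.0616 on the log2 scale against 0.0316 to 0.0549 in the other 10 libraries. The deviation went with transcript length. Genes with a transcript of at least 6 kb had a median deviation of 0.094 in replicate 1 and −0.10 in replicate 3, and genes under 2 kb had −0.050 and 0.068. The canonical transcripts of NOTCH1, NOTCH2 and NOTCH3 have 9568, 11425 and 8680 bases, so comparisons of these receptors with this group are given with and without each of these libraries. The part of transcript length in those results was not tested.

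Per kilobase of canonical transcript, the genes spanned a wide range. In wt-GR cells under vehicle NOTCH2 stood at 4324 ± 1033 normalized counts per kb (SD, n = 3) and RBPJ at 3911 ± 278, and the ranges of these 2 genes overlapped. HES1 at 1292 ± 86.5 and JAG1 at 1178 ± 99.2 came next and overlapped each other. NOTCH1 followed at 606 ± 93, then NOTCH3 at 223 ± 15.4 and HEYL at 143 ± 8.35, each apart from its neighbours. JAG2 at 106 ± 6.75 and HEY1 at 86.4 ± 12 closed the order and overlapped. In S134A-GR cells under vehicle RBPJ (4404 ± 141) stood above NOTCH2 (3775 ± 227) with no overlap. There NOTCH1 (755 ± 42.7) and JAG1 (632 ± 20.7) were above HES1 (402 ± 29.2), and JAG2 (168 ± 4.51) was above NOTCH3 (150 ± 8.17). The lowest 2 were HEYL (119 ± 7.2) and HEY1 (72.7 ± 8.47). Under TGFβ1 JAG1 ranked above NOTCH1 again in S134A-GR cells (873 ± 15.3 against 781 ± 54), while NOTCH3, HEYL and JAG2 at 119, 115 and 110.3 overlapped in turn.

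**Figure D1:**
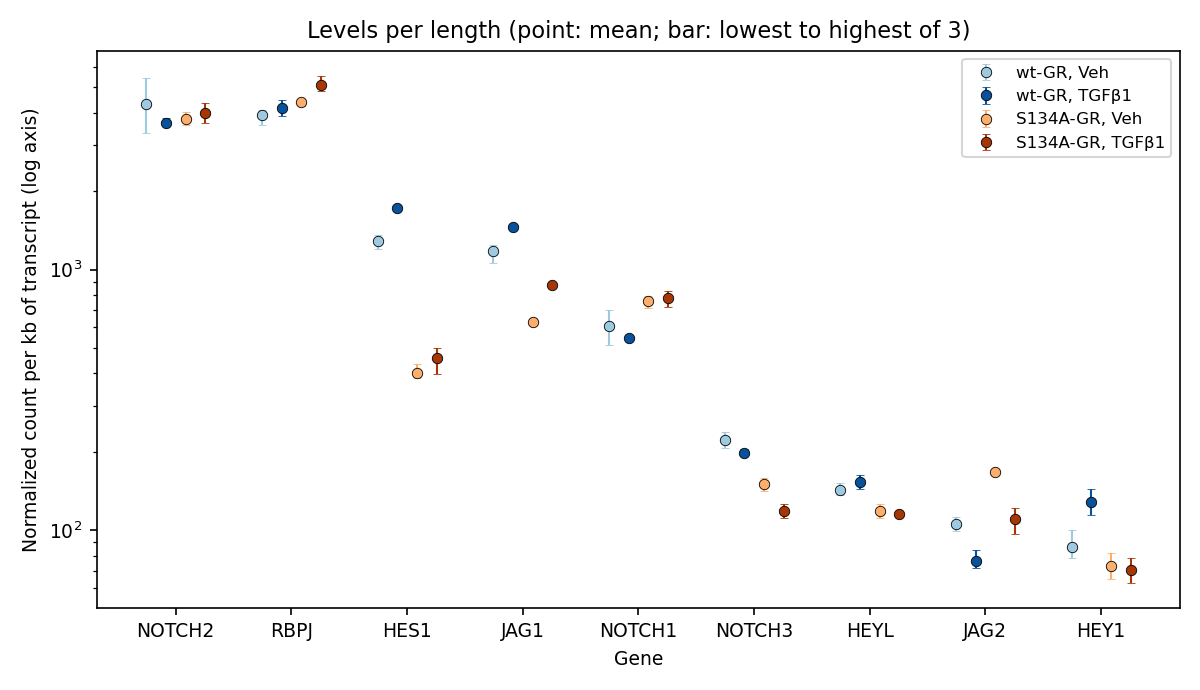
Mean normalized count per kb of canonical transcript (log axis) for the 9 genes, ordered by the level in wt-GR cells under vehicle, with bars from the lowest to the highest of 3 libraries in each of the 4 groups. NOTCH2 and RBPJ lie at 3642 to 5108 in all groups, and HES1 drops from 1292 and 1728 in wt-GR cells to 402 and 458 in S134A-GR cells.

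JAG1, on chromosome 20 (chr20:10637684-10673999, minus strand, hg38), encodes a ligand of the Serrate type. In wt-GR cells it had 7368, 7300 and 6316 normalized counts under vehicle and 8690, 8748 and 8613 under TGFβ1. In S134A-GR cells it had 3653, 3715 and 3890 under vehicle and 5243, 5079 and 5226 under TGFβ1. No library of one group overlapped those of another, and every S134A-GR library lay below every wt-GR library. JAG1 rose under TGFβ1 in wt-GR cells (log2 fold change 0.32, standard error 0.0515, adjusted p = 0.000487 by limma) and in S134A-GR cells (0.47, adjusted p = 1.64e-05). It was lower in S134A-GR than in wt-GR cells under vehicle (−0.90, adjusted p = 6.17e-09) and under TGFβ1 (−0.74, adjusted p = 4.08e-08). The means under TGFβ1 in S134A-GR cells (5183 ± 90.6) were below the vehicle level of wt-GR cells (6994 ± 589). The response of the lines differed by 0.15 with a 95% interval of −0.0059 to 0.31, which was not past the test (adjusted p = 0.554 by limma). An antisense gene shares 2.44% of the 75-base stretches of JAG1, and the strand setting of the counting was not given in the sources used here.

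JAG2, on chromosome 14 (chr14:105140982-105168824, minus strand), encodes the other Serrate-type ligand and ran the opposite way in all 4 comparisons between groups. In wt-GR cells it had 572, 607 and 649.7 normalized counts under vehicle and 488, 417 and 416 under TGFβ1. In S134A-GR cells it had 938, 983 and 983 under vehicle and 558, 701 and 651 under TGFβ1. The S134A-GR vehicle libraries were the highest of the 12, and the TGFβ1-treated S134A-GR libraries overlapped the vehicle-treated wt-GR libraries. JAG2 fell under TGFβ1 in wt-GR cells (−0.47, standard error 0.0936, adjusted p = 0.00227 by limma) and in S134A-GR cells (−0.61, adjusted p = 0.000335). It was higher under vehicle in S134A-GR cells (0.67, adjusted p = 3.40e-05) and under TGFβ1 (0.53, adjusted p = 0.000293). The responses of the lines differed by −0.14 with an interval of −0.42 to 0.15 (adjusted p = 0.780). A gene on the same strand shares 6.12% of the 75-base stretches of JAG2, so part of its reads could be counted there.

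As a description chosen after the values were seen, the ratio of JAG1 to JAG2 per kilobase was 12.5, 11.7 and 9.45 in wt-GR cells under vehicle and 17.3, 20.4 and 20.2 under TGFβ1. In S134A-GR cells it was 3.79, 3.67 and 3.85 under vehicle and 9.13, 7.05 and 7.80 under TGFβ1. JAG1 was the more abundant ligand transcript in every library, and TGFβ1-treated S134A-GR cells came below vehicle-treated wt-GR cells in this ratio.

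**Figure D2:**
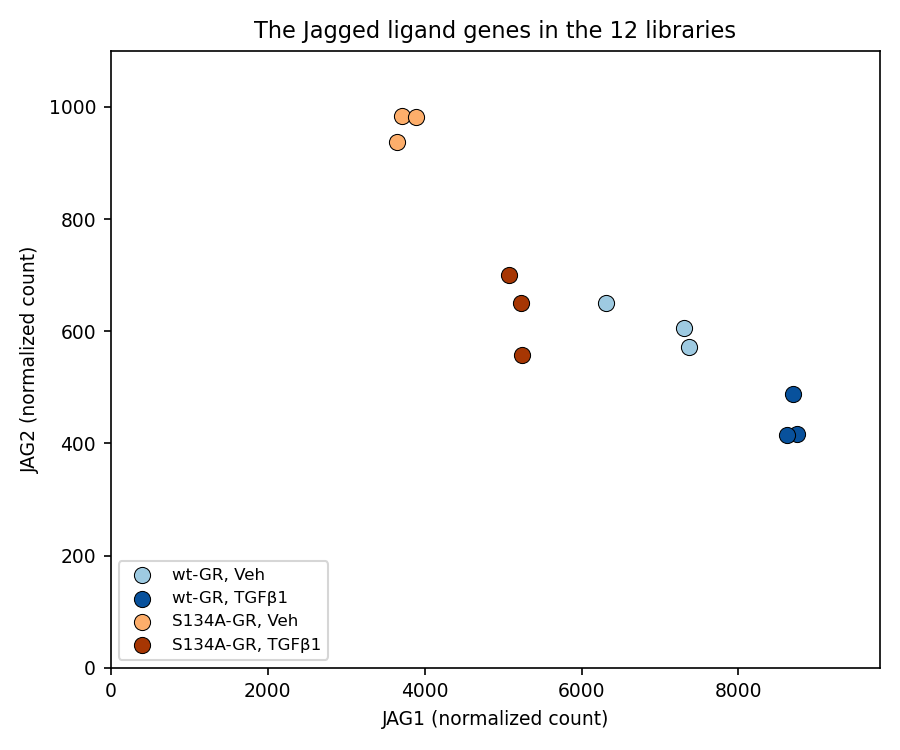
JAG1 against JAG2, both in normalized counts, with 1 point for each of the 12 libraries coloured by line and treatment. The S134A-GR vehicle libraries sit at the upper left (JAG1 3653 to 3890, JAG2 938 to 983) and the wt-GR libraries under TGFβ1 at the lower right (JAG1 8613 to 8748, JAG2 416 to 488).

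NOTCH1, on chromosome 9 (chr9:136494433-136546048, minus strand), encodes the receptor most often mutated in T-cell leukaemia. It had 6715, 5735 and 4938 normalized counts in vehicle-treated wt-GR cells and 5296, 5289 and 5143 under TGFβ1. S134A-GR cells had 7297, 6788 and 7596 under vehicle and 7611, 6903 and 7909.5 under TGFβ1. All 6 S134A-GR libraries lay above all 6 wt-GR libraries, and the treatments overlapped within each line. NOTCH1 was higher in the S134A-GR line under vehicle (0.33, standard error 0.0854, adjusted p = 0.00506 by limma) and under TGFβ1 (0.51, adjusted p = 0.000189). Without replicate 1 of wt-GR under vehicle the vehicle difference was 0.44 (adjusted p = 0.000115), and without replicate 3 it was 0.22 (adjusted p = 0.0174). The change under TGFβ1 was −0.13 in wt-GR cells (interval −0.32 to 0.050) and 0.048 in S134A-GR cells (−0.14 to 0.23). The wt-GR change was −0.022 (adjusted p = 0.885) without vehicle replicate 1, and without vehicle replicate 3 it passed the test at −0.24 (adjusted p = 0.0208).

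NOTCH2, on chromosome 1 (chr1:119911553-120100779, minus strand), was the receptor gene with the highest level. It had 61738, 48244 and 38229.5 normalized counts in vehicle-treated wt-GR cells, the widest spread of the 9 genes, and 40507, 43505 and 40825 under TGFβ1. S134A-GR cells had 42367, 41004 and 46012 under vehicle and 49955, 41628 and 44412 under TGFβ1. The groups overlapped in all 4 comparisons, and no comparison passed the test. The difference between lines was −0.17 under vehicle (interval −0.43 to 0.093, adjusted p = 0.269 by limma) and 0.12 under TGFβ1 (−0.14 to 0.38). Both libraries at the ends of the wt-GR vehicle group set its value: without replicate 1 the vehicle difference was 0.0044 (adjusted p = 0.975), and without replicate 3 it was −0.34 (adjusted p = 0.0061). The change under TGFβ1 in wt-GR cells was −0.22 (interval −0.48 to 0.042, adjusted p = 0.243), with −0.046 (adjusted p = 0.796) and −0.39 (adjusted p = 0.00628) when those libraries were left out. Of its 75-base stretches 6.59% also occur in other genes, among them the NOTCH2NL genes, partial copies of NOTCH2, so its count is uncertain by that part.

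NOTCH3, on chromosome 19 (chr19:15159038-15200995, minus strand), encodes the receptor known for its role in vascular smooth muscle. It had 2069, 1925 and 1803 normalized counts in vehicle-treated wt-GR cells and 1786, 1689 and 1698 under TGFβ1. S134A-GR cells had 1231, 1303 and 1373 under vehicle and 1097, 1022 and 967 under TGFβ1. The 4 groups did not overlap and descended in that order. NOTCH3 was lower in the S134A-GR line under vehicle (−0.57, standard error 0.0659, adjusted p = 5.67e-06 by limma) and under TGFβ1 (−0.75, adjusted p = 4.35e-07), the reverse of NOTCH1. It fell under TGFβ1 in S134A-GR cells (−0.34, adjusted p = 0.00211), with −0.16 in wt-GR cells (interval −0.30 to −0.021, adjusted p = 0.102), and the difference between these responses was −0.18 (interval −0.38 to 0.022, adjusted p = 0.585). Leaving out replicate 1 or 3 of vehicle-treated wt-GR cells, the vehicle difference was −0.52 (adjusted p = 2.84e-05) or −0.62 (adjusted p = 5.39e-06). The wt-GR change was then −0.11 (adjusted p = 0.325) or −0.21, which passed the test (adjusted p = 0.0406).

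**Figure D3:**
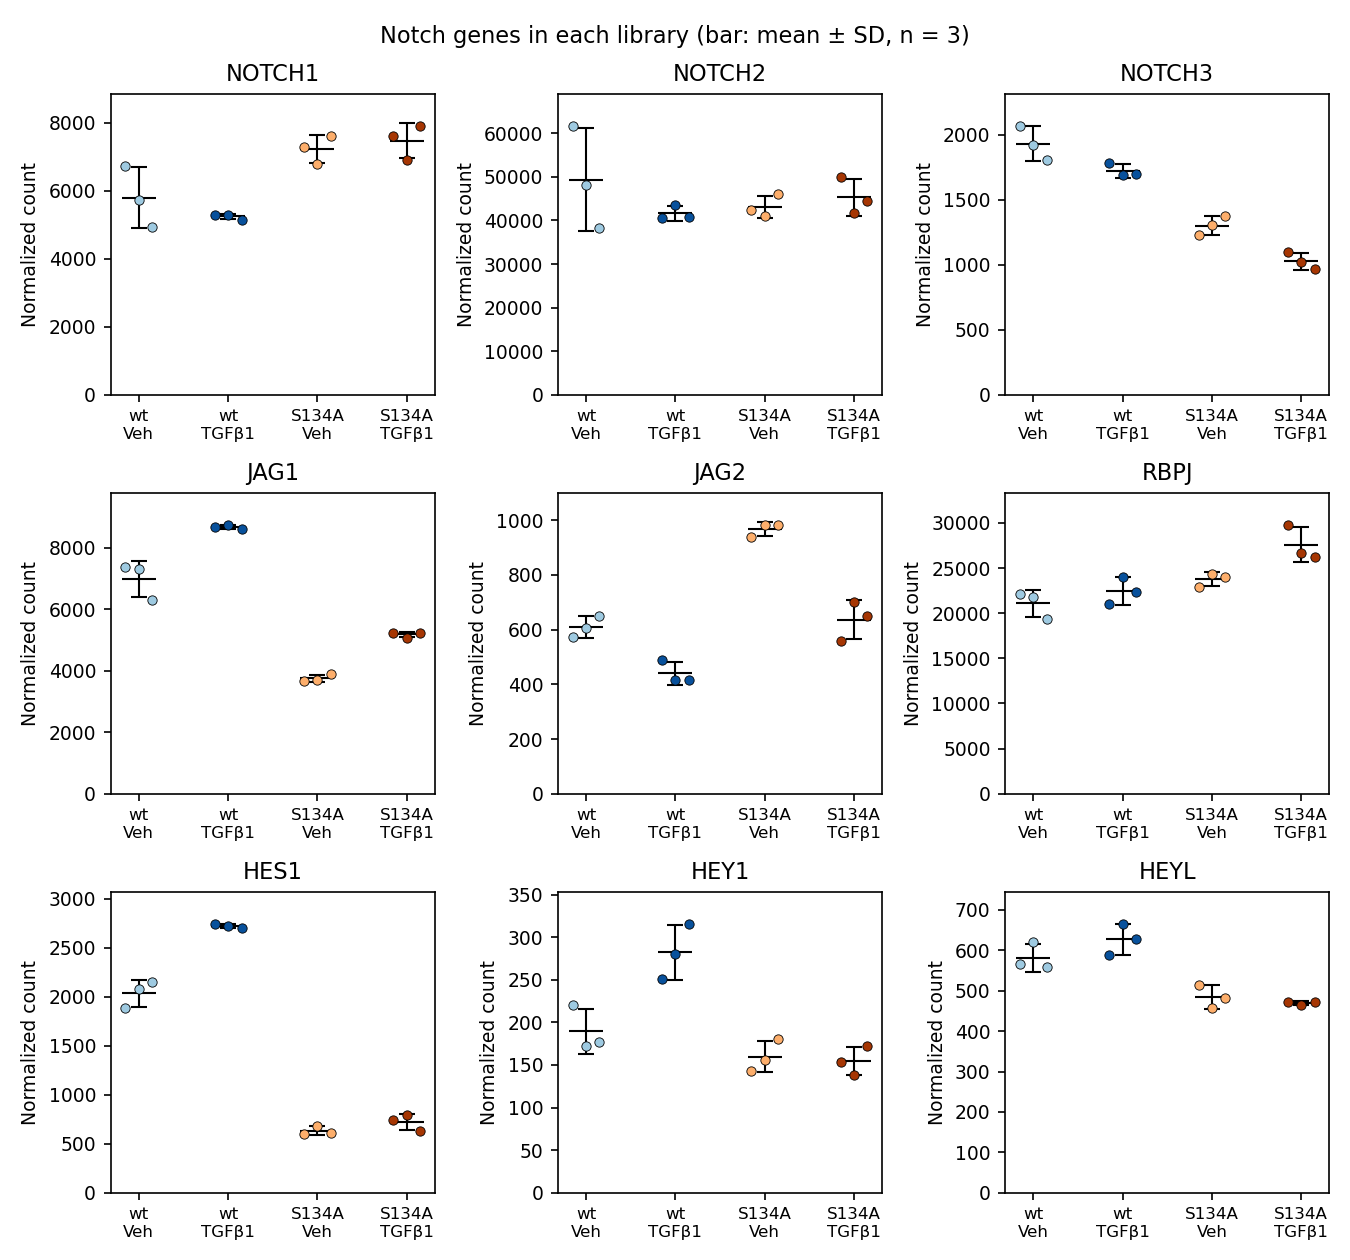
Normalized count of each of the 9 genes in each library (points, 3 per group) with the mean and SD of the group, each panel on its own axis from 0. HES1, JAG1 and NOTCH3 are lower in every S134A-GR library than in every wt-GR library, NOTCH1 is higher, and the 3 vehicle-treated wt-GR points of NOTCH2 spread from 38229.5 to 61738.

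RBPJ, on chromosome 4 (chr4:26163455-26435131, plus strand), encodes the factor through which all Notch receptors act on DNA. It had 22135, 21782 and 19382 normalized counts in vehicle-treated wt-GR cells and 21002, 24057 and 22367 under TGFβ1. S134A-GR cells had 22908, 24383 and 23984 under vehicle and 29786, 26699 and 26190 under TGFβ1. The TGFβ1-treated S134A-GR libraries stood above the other 9, and the treatments overlapped in wt-GR cells. RBPJ was higher in the S134A-GR line by 0.17 under vehicle (standard error 0.0619, adjusted p = 0.0304 by limma) and by 0.29 under TGFβ1 (adjusted p = 0.00121), and it rose by 0.21 under TGFβ1 in S134A-GR cells (adjusted p = 0.0278). The vehicle difference was no longer past the test without replicate 3 of wt-GR under vehicle (0.11, adjusted p = 0.129), or without replicate 2 (adjusted p = 0.095) or 3 (adjusted p = 0.0771) of S134A-GR under vehicle. The rise in S134A-GR cells was lost without replicate 1 (adjusted p = 0.11) or 3 (adjusted p = 0.0636) of S134A-GR under vehicle, without replicate 1 of S134A-GR under TGFβ1 (adjusted p = 0.117) and in a fit of those 2 groups alone (adjusted p = 0.0557). In wt-GR cells the change was 0.091 (interval −0.042 to 0.22).

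HES1, on chromosome 3 (chr3:194136148-194138732, plus strand), is the best known direct target of Notch in many tissues and encodes a repressor that also binds its own promoter. Its promoter and that of HEYL are shown because they were the only 2 of 8 promoters at hand that held TGGGAA, the core letters bound by RBPJ. The 8 were matched by symbol in RefSeq promoters of GRCh38.p14 (250 bases before to 50 after the start). HEY1 and DLL1 were not among them. Only bases before the start are printed, 5′ to 3′ on the gene's strand, with the letters TGGGAA, or TTCCCA where they lie on the other strand, in capitals.
HES1, chr3:194136028-194136147, plus strand: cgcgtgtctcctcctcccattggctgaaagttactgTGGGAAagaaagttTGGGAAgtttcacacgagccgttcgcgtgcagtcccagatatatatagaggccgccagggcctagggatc
HEYL, chr1:39639644-39639833, minus strand: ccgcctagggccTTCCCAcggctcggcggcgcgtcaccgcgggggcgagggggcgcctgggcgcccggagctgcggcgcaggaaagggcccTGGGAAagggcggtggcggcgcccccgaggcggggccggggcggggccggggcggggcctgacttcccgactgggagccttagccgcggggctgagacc
The 2 matches of HES1 begin 84 and 70 bases before the start, on the same strand. Those of HEYL begin 178 bases before it, on the other strand and within the longer form CGTGGGAA, and 99 bases before it. TGGGAA on either strand was in 24% of 35116 promoters of this length, close to the 2 of 8 here, and CGTGGGAA, which contains it, in 0.826%. The GC-rich SMAD letters GGCGCC were in NOTCH1, JAG2 and HEYL (19.2% of all promoters), with 1, 2 and 3 matches. The SMAD palindrome GTCTAGAC (0.202%), the AP-1 letters TGANTCA (7.71%), the glucocorticoid response letters ACANNNTGT (5.37%) and the TEAD letters GGAATG (14%) were in none of the 8. Both strands were searched, and a match or its absence describes these letters in this window only.

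HES1 had the largest difference between the lines of the 9 genes. In wt-GR cells it had 1884, 2076 and 2147 normalized counts under vehicle and 2744, 2722 and 2700 under TGFβ1. In S134A-GR cells it had 602, 685 and 609 under vehicle and 746, 792 and 629 under TGFβ1. Every S134A-GR library lay below every wt-GR library, the treatments were apart in wt-GR cells and they overlapped in S134A-GR cells. HES1 was lower in the S134A-GR line, with a log2 fold change of −1.69 under vehicle (standard error 0.0826, adjusted p = 1.32e-09 by limma), a level 0.311 times that of wt-GR cells, and −1.92 under TGFβ1 (adjusted p = 4.24e-10), 0.264 times. It rose under TGFβ1 in wt-GR cells by 0.42 (adjusted p = 0.00208). In S134A-GR cells the value was 0.19 (interval 0.0094 to 0.36, adjusted p = 0.143), and it passed the test without replicate 3 of S134A-GR under TGFβ1 (0.28, adjusted p = 0.0194). The responses of the lines differed by −0.23 (interval −0.49 to 0.017, adjusted p = 0.567), so a weaker response of HES1 in S134A-GR cells was not shown.

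The genes whose pattern over the 12 libraries was most like that of HES1, by Pearson's r of the log2 values among 12470 genes with a mean of at least 100 normalized counts, were BCL2A1 (r = 0.998), ACSL5 (0.995) and TMBIM1 (0.995). These r carry no test, since the 12 points share the split between the 2 lines.

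HEY1 encodes a related repressor and was the gene with the lowest level per length in 3 of the 4 groups. It had 220, 172 and 177 normalized counts in vehicle-treated wt-GR cells and 251, 280.5 and 316 under TGFβ1. S134A-GR cells had 143, 156 and 180 under vehicle and 153, 139 and 172 under TGFβ1. The TGFβ1-treated wt-GR libraries were the highest of the 12, and the libraries of the S134A-GR line overlapped those of vehicle-treated wt-GR cells. HEY1 rose by 0.57 under TGFβ1 in wt-GR cells (standard error 0.145, adjusted p = 0.0112 by limma), a call lost without replicate 2 of wt-GR under vehicle (0.51, adjusted p = 0.0532) or replicate 3 under TGFβ1 (0.49, adjusted p = 0.0569). In S134A-GR cells the change was −0.047 (interval −0.36 to 0.26, adjusted p = 0.881). The lines differed under TGFβ1 (−0.87, adjusted p = 0.000182) while the value under vehicle was −0.24 (interval −0.55 to 0.067, adjusted p = 0.178). Its difference in response, −0.62 (interval −1.06 to −0.18), was the largest among these genes and had an unadjusted p of 0.00899 and an adjusted p of 0.348 by limma.

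HEYL, on chromosome 1 (chr1:39623435-39639643, minus strand), encodes the third HEY repressor. It had 565, 620.4 and 558 normalized counts in vehicle-treated wt-GR cells and 588, 666 and 627 under TGFβ1. S134A-GR cells had 515, 456 and 481 under vehicle and 473, 464 and 473 under TGFβ1. The lines did not overlap under either treatment, and the treatments overlapped in each line. HEYL was lower in the S134A-GR line, with −0.26 under vehicle (standard error 0.0783, adjusted p = 0.0114 by limma) and −0.41 under TGFβ1 (adjusted p = 0.000521). The vehicle difference was lost without replicate 2 of wt-GR (adjusted p = 0.0564) or of S134A-GR (adjusted p = 0.051). All 3 target genes were thus lower in S134A-GR cells under TGFβ1, and HES1 and HEYL also under vehicle. Of all genes tested, 25.7% and 26.5% were lower in these 2 comparisons. The 12 other targets tested went both ways. In S134A-GR cells 3 were higher and 3 lower under vehicle, and 4 were higher and 5 lower under TGFβ1.

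Counted over the 9 genes, TGFβ1 raised JAG1, HES1 and HEY1 and lowered JAG2 in wt-GR cells, 3 and 1 genes, where 11.2% of all genes tested rose and 9.82% fell. Without replicate 3 of wt-GR under vehicle the count of 4 became 7, with NOTCH1 (−0.24), NOTCH2 (−0.39) and NOTCH3 (−0.21) also lower under TGFβ1. Without replicate 1 of that group instead, these receptors had −0.022, −0.046 and −0.11 (adjusted p = 0.885, 0.796 and 0.325 by limma). Over all single libraries left out, the count of 4 was between 3 and 7. In S134A-GR cells JAG1 and RBPJ rose and JAG2 and NOTCH3 fell, against 10.0% and 8.69% of all genes. No gene of the 9 changed by an absolute log2 fold change of 1 or more under TGFβ1, as 2.29% of all genes did in wt-GR and 1.66% in S134A-GR cells. Between the lines under vehicle, JAG2, NOTCH1 and RBPJ were higher and HES1, JAG1, NOTCH3 and HEYL lower in S134A-GR cells, against 25.0% and 26.5% of all genes. Without single libraries this count of 7 was between 5 and 7. Under TGFβ1 HEY1 joined those that were lower, which made 3 and 5, against 23.1% and 25.7%. Only HES1 passed an absolute log2 fold change of 1, under either treatment, as 9.51% and 8.46% of all genes did. The median log2 fold change between lines was −0.24 over the 9 genes under vehicle and −0.41 under TGFβ1, against 0.019 and 0.012 over all genes tested. The median response to TGFβ1 was 0.091 in wt-GR and 0.048 in S134A-GR cells, against −0.0046 and −0.0097. Comparisons that share a group share its libraries and are not independent of each other.

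None of the 9 genes passed the test of the difference in response between the lines by limma, and edgeR and DESeq2 on the recovered reads also gave 0. Of all genes 0.414% passed it, and 0.0592% with an absolute difference of 1 or more. Before adjustment 1 of the 9, HEY1, had a p under 0.05. The intervals still allow sizeable differences, the widest being those of HEY1 and NOTCH2 (−0.082 to 0.66).

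**Figure D4:**
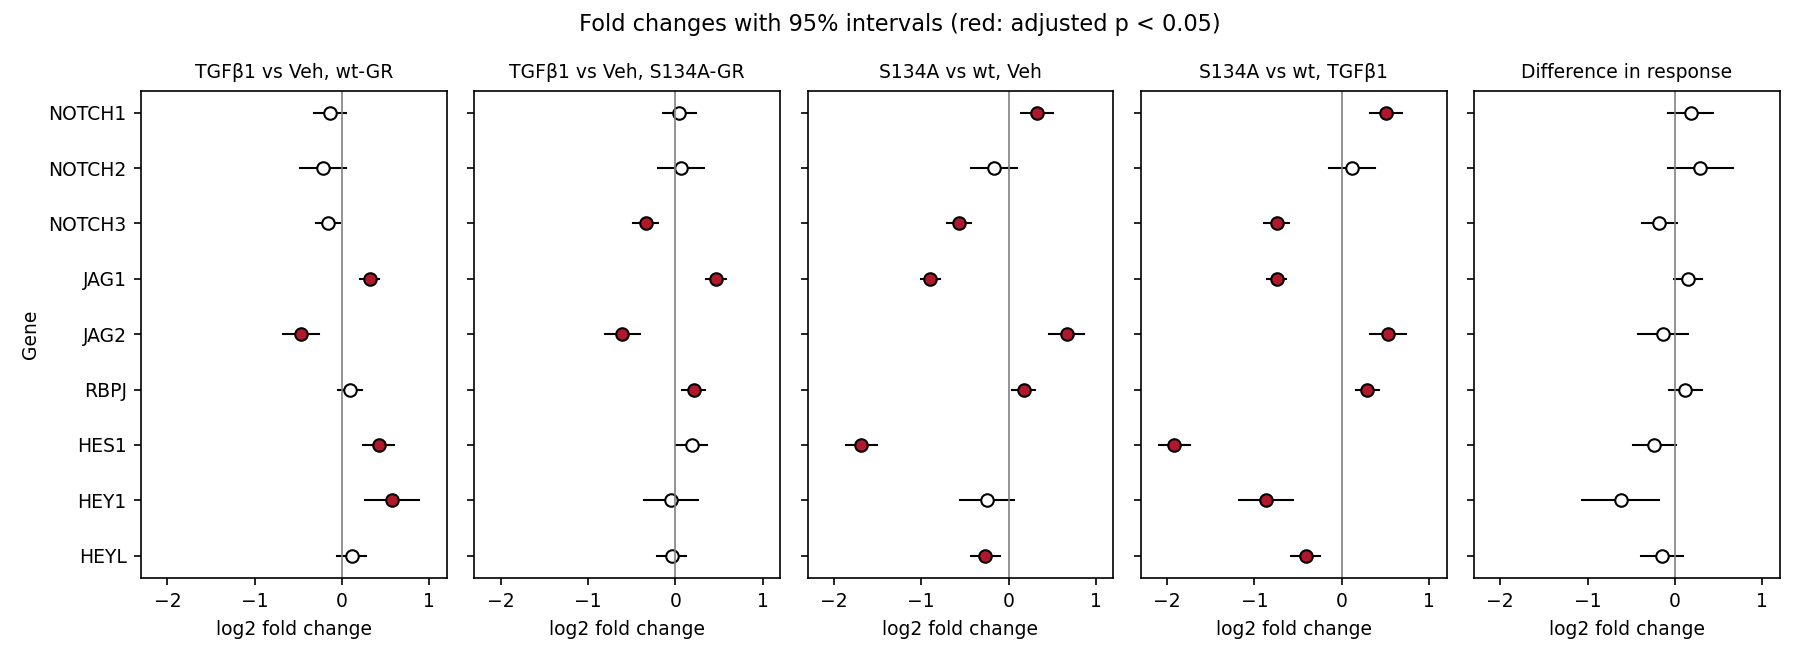
Log2 fold change (points) with 95% interval (lines) of the 9 genes in the 5 comparisons, red where the adjusted p by limma was under 0.05. JAG1 and JAG2 lie on opposite sides of 0 in the first 4 panels, HES1 reaches −1.69 and −1.92 between the lines, and no point is red in the last panel.

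Of 64 other genes of the pathway, in 9 roles, 62 had a row and 59 had enough reads to be tested. DLL3, DTX1 and TLE4 fell under the read filter. TGFβ1 raised 8 and lowered 9 of the 59 in wt-GR cells, with a median log2 fold change of −0.00059, and raised 8 and lowered 13 in S134A-GR cells (median −0.0014). These are 13.6% and 15.3% of the 59, against 11.2% and 9.82% of all genes tested, and then 13.6% and 22.0%, against 10.0% and 8.69%. Without replicate 2 of wt-GR under vehicle, the 17 in wt-GR cells became 11. In S134A-GR cells 16 were higher and 20 lower than in wt-GR cells under vehicle (median −0.017), and 17 were higher and 19 lower under TGFβ1 (median 0.0087). These are 27.1% and 33.9%, against 25.0% and 26.5% of all genes, and 28.8% and 32.2%, against 23.1% and 25.7%. None passed the test of the difference in response by limma or by edgeR, while 13 had a p under 0.05 before adjustment. DESeq2 called 2, NEDD4 (0.30, adjusted p = 0.00203), a ubiquitin ligase, and TLE3 (−0.24, adjusted p = 0.0105), a corepressor. Limma called NEDD4 (0.34, adjusted p = 0.0129) without replicate 3 of wt-GR under vehicle.

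The other ligand tested, DLL4, had low levels, with 70.1, 50.7 and 42.1 normalized counts in vehicle-treated wt-GR cells and 28.9, 24.2 and 18.3 under TGFβ1. It fell by 1.15 on the log2 scale (adjusted p = 0.0149 by limma), a call lost without replicate 1 of wt-GR under vehicle (adjusted p = 0.0681) or replicate 3 under TGFβ1 (adjusted p = 0.0652). S134A-GR cells had 44.3, 24.3 and 27.6, and 26.6, 22.3 and 17.2, which overlapped. The fourth receptor gene, NOTCH4, had 2, 10 and 8 reads in wt-GR libraries under vehicle and 9, 24 and 15 under TGFβ1, against 2, 1 and 2 and then 2, 1 and 9 in S134A-GR libraries. The lines differed under vehicle (adjusted p = 0.0236 by limma) and under TGFβ1 (adjusted p = 0.0058). With only 1 or 2 reads in most S134A-GR libraries, no fold is given. The vehicle call was lost without replicate 2 (adjusted p = 0.0946) or 3 (adjusted p = 0.0685) of wt-GR, or replicate 2 of S134A-GR (adjusted p = 0.0723), under vehicle.

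Of 5 fringe and O-linked sugar enzymes, 3 were lower in S134A-GR cells under vehicle and 3 under TGFβ1 (26.5% and 25.7% of all genes). The one with the highest level, POFUT1, was among them in both (−0.15, adjusted p = 0.00056 by limma, and −0.17). Of 4 ligases of ligand endocytosis 2 fell under TGFβ1 in S134A-GR cells (8.69% of all genes), and none rose or fell in wt-GR cells. Relative to wt-GR, 2 of the 4 were higher in S134A-GR cells under vehicle and 1 under TGFβ1 (25.0% and 23.1% of all genes). No ligase passed the test of the difference in response. MIB1, the highest of them, had 6268 ± 873 and 5908 ± 271 normalized counts in wt-GR and 6146 ± 240.4 and 6145 ± 389.9 in S134A-GR cells. Of 8 proteases of receptor cleavage, TGFβ1 raised none and lowered 1 in wt-GR cells (11.2% and 9.82% of all genes). None of the 8 passed the test for TGFβ1 in the S134A-GR line, where 10.0% and 8.69% of all genes did. Relative to wt-GR, that line had 2 proteases up and 2 down with vehicle (all genes: 25.0% and 26.5%). With TGFβ1 it had 4 up and 2 down (all genes: 23.1% and 25.7%). ADAM17 encodes an ADAM protease of the cleavage that precedes γ-secretase. Under vehicle it had 8769, 8824 and 8027 normalized counts in wt-GR cells and 4049, 4211 and 4100 in S134A-GR cells, with no overlap. The log2 fold change was −1.05 under vehicle (adjusted p = 6.23e-10 by limma) and −0.99 under TGFβ1. NCSTN, a γ-secretase subunit, had the highest mean normalized count of the 8, while APH1A had the higher mean per kb in every group. NCSTN was higher in S134A-GR cells by 0.14 under vehicle (adjusted p = 0.00413 by limma) and 0.11 under TGFβ1 (adjusted p = 0.0134). The call under TGFβ1 was lost without replicate 2 of wt-GR (adjusted p = 0.0563) or replicate 1 of S134A-GR (adjusted p = 0.0627) under TGFβ1. Of 9 genes of receptor turnover, the S134A-GR line had 4 higher and 3 lower under vehicle, where 25.0% and 26.5% of all genes were. The highest of these, NUMB, which encodes an endocytic inhibitor of Notch, was at 11468 ± 154 against 10865 ± 273 (0.078, adjusted p = 0.0473). With edgeR on the recovered reads its adjusted p was 0.0755, with DESeq2 0.0703, with TMM scaling 0.0654 and with a replicate block 0.0621. It was also over 0.05 without any 1 library other than replicate 2 of wt-GR under vehicle.

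Of 8 coactivators 1 rose and 1 fell under TGFβ1 in wt-GR cells (11.2% and 9.82% of all genes) and 1 fell in S134A-GR cells (8.69%), and SNW1, the highest, differed by no more than 0.059 in any of the 4 comparisons between groups. Of 11 corepressors 2 rose and 2 fell under TGFβ1 in wt-GR cells (11.2% and 9.82% of all genes). In the S134A-GR line 3 rose and 2 fell (10.0% and 8.69%). TLE2, a corepressor of the Groucho family, was higher in S134A-GR cells, at 1137, 1138 and 1098 against 502, 546 and 584 under vehicle (1.05, adjusted p = 3.79e-08 by limma) and by 0.89 under TGFβ1. Under vehicle 3 corepressors were higher and 6 lower in the S134A-GR line, against 25.0% and 26.5% of all genes.

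Of 12 other targets TGFβ1 raised 3 and lowered 3 in wt-GR cells and raised 3 and lowered 6 in S134A-GR cells. Of all genes it raised 11.2% and lowered 9.82% in the first line, and 10.0% and 8.69% in the second. BHLHE40, a basic helix-loop-helix repressor that TGFβ and hypoxia also regulate, had 21995, 22828 and 21481 normalized counts in vehicle-treated wt-GR cells and 50962, 47949 and 49173 under TGFβ1. S134A-GR cells had 12152, 12499 and 12025, and 31672, 32528 and 29620 under TGFβ1. It rose by 1.16 (adjusted p = 8.32e-11 by limma) and 1.35 (adjusted p = 2.66e-11), and every S134A-GR library was below the wt-GR libraries of the same treatment (−0.85 and −0.66). HES7 ran against HES1, with 417, 458 and 469.6 normalized counts in wt-GR and 1179, 1060 and 1114 in S134A-GR cells under vehicle (1.32, adjusted p = 2.05e-08), and it was higher by 1.21 under TGFβ1. It fell by 0.32 on the log2 scale under TGFβ1 in S134A-GR cells (adjusted p = 0.0192), and the adjusted p was 0.0521 to 0.0882 without replicate 1 or 3 under vehicle or replicate 1 or 2 under TGFβ1 of that line. NRARP, a feedback inhibitor of Notch, had 63.3, 34.4 and 59.1 normalized counts in wt-GR cells under TGFβ1, against 10.5, 10.1 and 25.8 in the S134A-GR line, with no overlap (−1.78, adjusted p = 0.000687). Its fall under TGFβ1 in S134A-GR cells, from 28.3, 32.4 and 36.5 (−1.14, adjusted p = 0.0338), had an adjusted p of 0.0622 with edgeR and of 0.0611 to 0.123 without any 1 library of those 2 groups other than replicate 3 under TGFβ1. CCND1, the target with the highest mean over the 12 libraries, was lower in the S134A-GR line, with −0.55 under vehicle (adjusted p = 4.66e-08 by limma) and −0.43 under TGFβ1. Under TGFβ1 BHLHE40 stood above CCND1 per kb, at 15660 against 11480 in wt-GR and 9922 against 8512 in S134A-GR cells.

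**Figure D5:**
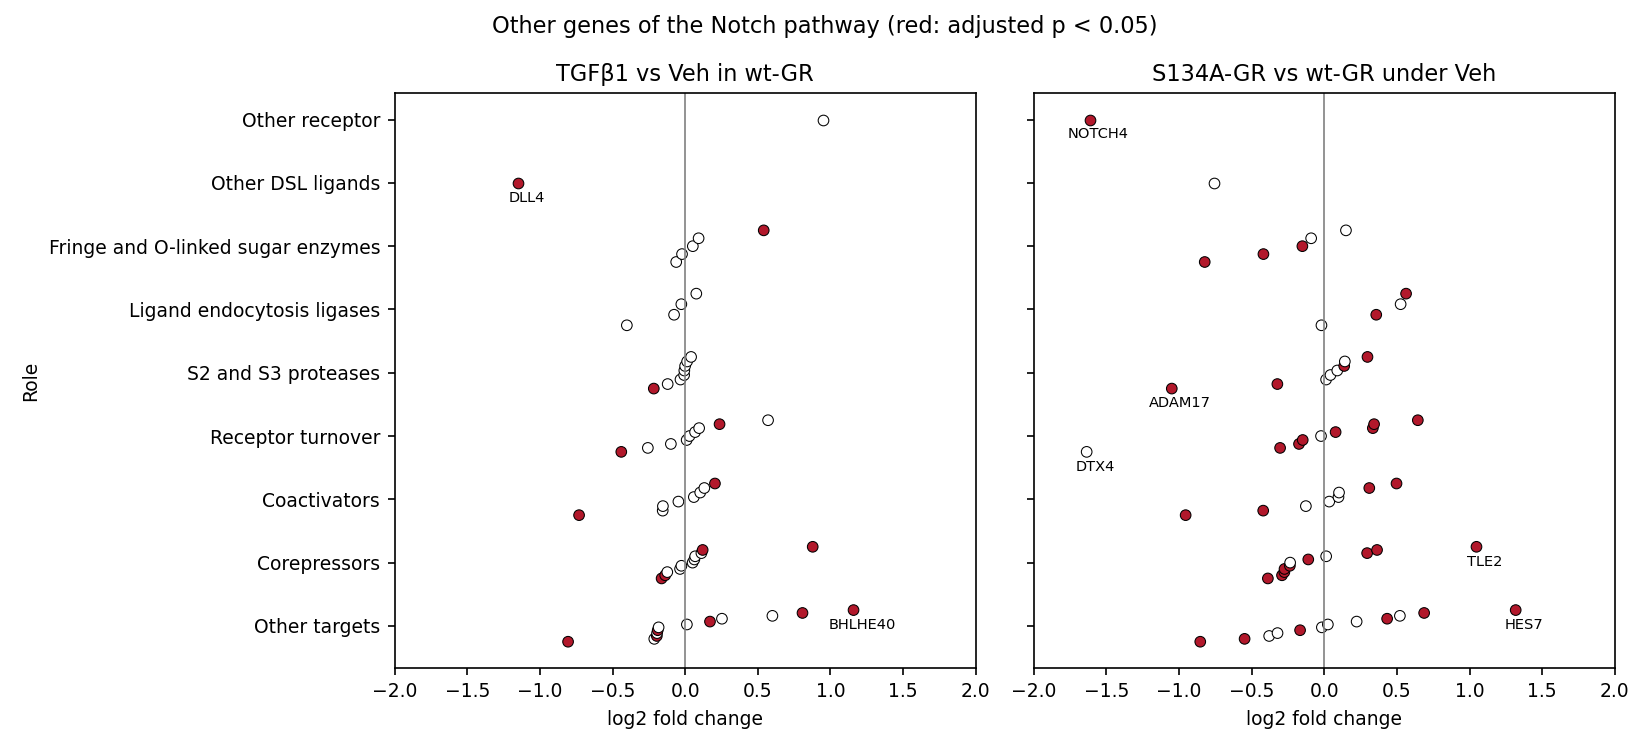
Log2 fold change of 59 other genes of the Notch pathway by role (1 point per gene, red where the adjusted p by limma was under 0.05) for TGFβ1 in wt-GR cells (left) and S134A-GR against wt-GR under vehicle (right), with genes past an absolute value of 1 named. NOTCH4 on the right rests on 1 to 10 reads a library. Red points are 17 on the left and 36 on the right, and they lie on both sides of 0 in each panel.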

How the data were processed

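The signal that the authors deposited is a normalized count. They trimmed paired 75-base reads (Trimmomatic), aligned them to hg38 (HISAT2), counted reads per gene (featureCounts) and divided each library by a DESeq2 size factor (DESeq2 1.22.2 and FastQC 0.11.7 in the submitters' processing notes). The annotation, the strand setting and the versions of HISAT2 and featureCounts are not given in the sources used here. Replicates were not pooled.

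All values (100%) of each library came out as whole reads once divided by the step of 1 read (tolerance 0.01 reads), which gave reads for the filter and the count tests. Genes with at least 10 reads over the 12 libraries were fitted with limma 3.58.1 in R 4.3.3 on log2 of the value plus 1, with 4 group means, trend and Benjamini-Hochberg adjustment. The scripts were tested on simulated data. edgeR 4.0.16 and DESeq2 1.42.0, TMM scaling, pseudocounts of 0.5 and 16, other filters, a replicate block, only the groups compared and leaving out each library were alternatives. Transcript lengths, positions and shared 75-base stretches came from GENCODE v44, which need not be the authors' annotation.

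The 10 genes, the pathway list of 64 and the markers were chosen with earlier results of these data known. Of the pathway list, genes called at an absolute log2 change of 1 or more or in the difference in response, and the gene with the highest mean in each role, are named. Some items of this rule and of the checks are not reported here. NEDD4 and TLE3 were named after their values were seen.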

Additional observations from a re-analysis of the deposited data

How the results depend on the processing

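Over 21 alternatives, 915 of 936 fold changes of the 9 genes kept their direction and their side of the threshold, 11 were no longer past it, 5 came past it and 5 reversed. Where the library left out is in a group that a comparison does not use, the fold change stays the same. Such values are among the 936, and for them only the adjusted p could move. All the reversed values were close to 0 and came from leaving out 1 library. They were NOTCH2 under TGFβ1 in S134A-GR cells (−0.00265 without S134A-GR TGFβ1 replicate 1, range −0.00265 to 0.129) and between the lines under vehicle (0.00438 without wt-GR vehicle replicate 1, range −0.341 to 0.00438), HEY1 under TGFβ1 in S134A-GR cells (0.0413 without S134A-GR vehicle replicate 3, 0.0274 without S134A-GR TGFβ1 replicate 2, range −0.125 to 0.0413) and HEYL in the same comparison (0.00389 without S134A-GR vehicle replicate 1, range −0.0829 to 0.00389). Of 588 values of the named pathway genes in comparisons where they were called, 553 kept the call. The 588 also include fits without a library of a group that the comparison does not use.

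When single libraries were left out, the 9 genes gave 3 to 7 calls for TGFβ1 in wt-GR cells, 3 to 5 in S134A-GR cells, 5 to 7 between the lines under vehicle and 8 to 8 under TGFβ1. Calls in the difference in response over all genes were 77, and 22 to 166 with a library left out and 211 with DESeq2. The pathway list gave 11 to 18 calls for TGFβ1 in wt-GR cells, 14 to 21 in S134A-GR cells and 0 to 1 in the difference in response, where DESeq2 gave 2. Causes were not tested. TMM scaling moved none of 36 group levels of the 9 genes by more than 1 SD. No sign of a pairing by replicate number was seen. Deviations of libraries with the same number had a mean r of −0.0032, with 4 of 18 pairs over 0.1. Those with different numbers had a mean r of 0.0017, with 8 of 36 pairs over 0.1. Only 2 of 12 libraries were most like those of their own number. Such values do not settle whether the numbers mark shared cultures or batches. With the number as a replicate block, the counts of calls among the 9 genes stayed at 4, 4, 7, 8 and 0, and the pathway list gave 16, 20, 38, 34 and 0. In the promoters, the window of 250 bases before the start alone gave the same genes for each motif. For the genes with few reads, NOTCH4, NRARP and DLL4, depth limits what these libraries can show.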
